A study of Mus musculus with 238 samples.

Results

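The posterior hippocampus of diet-restricted mice was compared with that of freely fed mice across all genes. The 9 libraries were the diet-cohort samples labelled Hippocampus (posterior), taken from 238 libraries in the series, with 5 from restricted animals (labelled aDR) and 4 from animals fed ad libitum (AL). All 9 mice were C57BL/6JN females aged 19 months, each mouse gave 1 library of this region, and no allele or transgene is named in the labels. In the same series, anterior hippocampus came from the same 9 mice, and posterior hippocampus also came from 3 males given plasma of young mice (YMP) and 3 given saline (PBS), all aged 19 months, so sex cannot be told apart from experiment. The labels give neither the length of the restriction nor the hour of sampling, and no batch. Bulk RNA from homogenised tissue was measured, so fewer cells of a type and less RNA per cell cannot be told apart.

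The hippocampus is the site of new episodic memory, with granule cells in the dentate gyrus and pyramidal cells in the CA fields. In rodents its posterior, ventral pole is linked to stress and emotional behaviour and its anterior, dorsal pole to spatial memory. A fasting or restricted mouse commonly lowers its body temperature and raises its corticosterone, the rodent glucocorticoid, which enters the brain, binds receptors that act as transcription factors and turns on genes in glia, vessels and neurons. RBM3 and CIRBP are RNA-binding proteins that cells make more of when they are mildly cooled.

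Library totals ran from 2704076 to 11074861 counts in the aDR group and from 7033737 to 12785341 in the AL group. The mitochondrial share was 1.84% to 2.69%, and 16 pairs of libraries of the same diet all differed by more than sampling noise (lowest chi-square per degree of freedom 1.52). The shallowest library was that of aDR mouse 62. After a filter on low counts, 13434 of 21076 genes were tested. Levels below are CPM, counts scaled to a common depth on library sizes scaled by the trimmed mean of M-values (TMM), and differences are log2 of aDR over AL from the edgeR quasi-likelihood fit.

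The promoters of 4 genes that the results turn on are shown, because members of the cold-inducible, lipid and clock groups are described below. They are RefSeq windows of GRCm38.p6, 5′ to 3′, running from 250 bases before to 50 bases after the start, with motif matches on either strand in capitals. Cirbp lies at chr10:80167589-80167888 (plus strand), Plin4 at chr17:56109733-56110032 (minus strand), Fmo2 at chr1:162898709-162899008 (minus strand) and Ciart at chr3:95882179-95882478 (minus strand).
Cirbp: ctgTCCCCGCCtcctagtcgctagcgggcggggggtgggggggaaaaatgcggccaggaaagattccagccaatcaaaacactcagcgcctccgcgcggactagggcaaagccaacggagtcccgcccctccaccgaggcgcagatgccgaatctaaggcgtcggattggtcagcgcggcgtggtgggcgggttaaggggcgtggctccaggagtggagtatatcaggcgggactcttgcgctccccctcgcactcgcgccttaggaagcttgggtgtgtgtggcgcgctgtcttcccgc
Plin4: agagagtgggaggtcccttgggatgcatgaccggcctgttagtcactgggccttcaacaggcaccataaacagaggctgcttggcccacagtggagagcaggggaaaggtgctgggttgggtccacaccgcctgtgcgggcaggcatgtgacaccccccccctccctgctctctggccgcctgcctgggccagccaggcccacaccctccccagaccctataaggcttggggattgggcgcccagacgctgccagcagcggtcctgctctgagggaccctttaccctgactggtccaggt
Fmo2: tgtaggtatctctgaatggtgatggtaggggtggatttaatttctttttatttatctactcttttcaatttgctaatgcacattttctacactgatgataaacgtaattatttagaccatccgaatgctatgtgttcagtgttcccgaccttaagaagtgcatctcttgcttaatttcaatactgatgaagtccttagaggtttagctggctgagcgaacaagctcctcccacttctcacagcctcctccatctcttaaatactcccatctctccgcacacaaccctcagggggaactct
Ciart: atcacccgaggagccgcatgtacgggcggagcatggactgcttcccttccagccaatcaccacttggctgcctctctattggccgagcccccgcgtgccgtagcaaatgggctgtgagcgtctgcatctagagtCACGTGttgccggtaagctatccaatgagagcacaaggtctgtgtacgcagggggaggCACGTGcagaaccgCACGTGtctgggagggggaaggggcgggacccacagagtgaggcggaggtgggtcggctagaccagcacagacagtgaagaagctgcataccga
The Cirbp window held 1 copy of TCCCCGCC, an octamer described as a mild-cold response element, which 5.44% of 27025 gene windows of the same length hold. This window lies inside the GENCODE span of the gene, downstream of its annotated start at 80165985. The Ciart window held 3 E-boxes (CACGTG, the site of CLOCK and BMAL1), a motif present in 7.24% of windows. The Plin4 and Fmo2 windows held none of the motifs searched, which were those 2, the D-box TTATGTAA, the palindromic glucocorticoid response element, the direct-repeat PPAR response element and the ROR monomer element AGGTCA, the last being part of the PPAR element. Of 67 genes chosen for description, 56 matched a RefSeq window by symbol, and 12 of those held an E-box, 9 a ROR monomer element and 5 the octamer. The D-box (0.958% of all windows), the glucocorticoid element (0.0037%) and the PPAR element (0.0444%) were in none of the 56, and the ROR monomer element was in 16% of all windows. A match describes the letters of the window only. Rbm3 was not among the matched genes.

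Across all genes, edgeR called 0 of 13434 at an adjusted p under 0.05 (0%), with a lowest adjusted p of 0.237. At an unadjusted p under 0.05 there were 530 genes (3.95%), of which 285 (2.12%) were higher and 245 (1.82%) lower in aDR. By value, 7136 of the 13434 genes lay above 0 and 6298 below. All aDR libraries lay above all AL libraries for 130 genes (0.968%) and below them for 95 (0.707%). On the same libraries DESeq2 called 6 of 18065 genes (0.0332%), namely Rbm3, Plin4, Cirbp and Fmo2 higher and Cadps2 and Sv2b lower in aDR, with 464 at an unadjusted p under 0.05 (2.57%). limma-voom with sample weights called 1, Rbm3 (adjusted p = 0.0416). Without AL mouse 68, 861 genes in place of 530 had an unadjusted p under 0.05 by edgeR, and 0 were called. The number of calls thus differed between tools on the same libraries, so the value in each library is given below for the genes that lead.

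Both cold-inducible genes stood at the head of the higher genes. Rbm3 was at 122.5, 132.5, 115.1, 126 and 92.25 CPM in aDR mice 61, 62, 64, 65 and 67, and at 63.31, 65.83, 66.77 and 76.56 CPM in AL mice 63, 66, 68 and 69. Every aDR library was above every AL library, with aDR mouse 67 the lowest of its group. The difference was 0.78 (SE 0.11; edgeR adjusted p = 0.237, DESeq2 adjusted p = 2.71e-06), between group means of 117.7 ± 15.5 (SD, n = 5) and 68.1 ± 5.8 CPM (SD, n = 4). Without aDR mouse 67 edgeR called Rbm3 (adjusted p = 0.0211), the single case among 9 in which leaving out 1 mouse produced a call.

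Rbm3 lies on chromosome X at 8138975 to 8145880 of GRCm38, on the minus strand, and its antisense gene Rbm3os (8145429 to 8147964, plus strand) overlaps it by 452 bases. Rbm3os was at 4.88 to 7.95 CPM in aDR and 2.88 to 4.43 CPM in AL, with a difference of 0.82 (SE 0.19; edgeR adjusted p = 1). The libraries carry no strand, so reads in the shared stretch cannot be told apart. Rbm3os was given at most 55 counts in a library, and Rbm3 350 to 1040 counts in aDR and 459 to 846 in AL. The part of shared reads in the difference of either gene was not tested. Rbm3os was picked after its values were seen.

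Cirbp (chromosome 10, 80165985 to 80172786) was at 197.8, 220.3, 167.7, 217.5 and 175 CPM in the aDR mice, in the same order, and at 128.9, 111.3, 93.97 and 136.2 CPM in the AL mice. The groups did not overlap, and the lowest aDR library stood well above the highest AL library. The difference was 0.73 (SE 0.13; edgeR adjusted p = 0.473, DESeq2 adjusted p = 0.000535). The list of cold-inducible RNA-binding proteins has only these 2 members, so its median of 0.76 adds nothing to them.

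**Figure D1:**
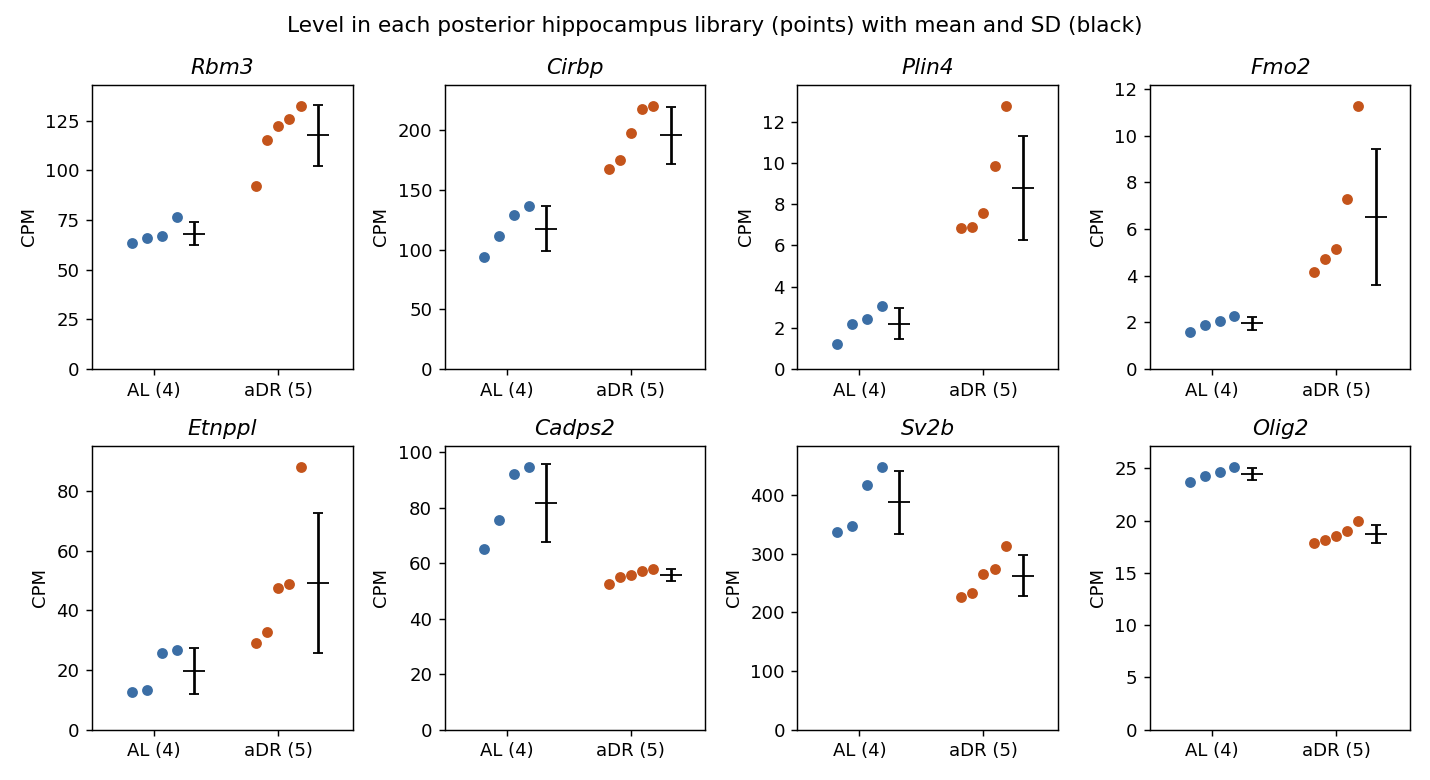
Level of 8 genes in each posterior hippocampus library, in CPM on linear axes that start at 0, for AL (4 mice, blue) and aDR (5 mice, orange), with the mean and SD in black. Points of each group are drawn in order of size, and in all 8 panels the groups do not overlap, with Rbm3 at 63.31 to 76.56 CPM in AL and 92.25 to 132.5 CPM in aDR. The 8 genes are among those of smallest p over all genes or in their list, which favours a lack of overlap.

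The widest differences among the leading genes were in Plin4 and Fmo2. Plin4 encodes perilipin 4, a coat protein of lipid droplets, and Fmo2 a flavin-containing monooxygenase that oxidises drugs and amines. Both are also listed here among glucocorticoid targets. Plin4 (chromosome 17, 56100591 to 56109803) was at 6.838, 9.843, 7.571, 6.887 and 12.77 CPM in aDR mice and at 2.409, 3.035, 2.182 and 1.188 CPM in AL mice. No AL library came near the aDR range, on 26 to 144 counts in aDR and 11 to 39 in AL. The difference was 1.97 (SE 0.29; edgeR adjusted p = 0.237, DESeq2 adjusted p = 8.77e-06).

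Fmo2 (chromosome 1, 162874317 to 162898726) was at 7.304, 4.164, 4.732, 5.125 and 11.27 CPM in aDR mice and at 1.893, 2.257, 1.6 and 2.052 CPM in AL mice. Again no AL library reached the aDR range, and aDR mouse 67 was the highest, as it was for Plin4. The difference was 1.78 (SE 0.31; edgeR adjusted p = 0.473, DESeq2 adjusted p = 0.00294), on 11 to 127 counts in aDR and 11 to 29 in AL, so single libraries were measured on few reads. Etnppl, an astrocyte enzyme that breaks down phosphoethanolamine, was at 47.4, 48.84, 28.96, 32.83 and 88.17 CPM in aDR mice and at 26.84, 25.76, 13.38 and 12.74 CPM in AL mice. Its groups did not overlap, but the margin was narrow, and the difference of 1.32 (SE 0.35) had an edgeR adjusted p of 1.

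The other genes with the smallest p among those higher in aDR had smaller differences. Klhl40, an adaptor of a ubiquitin ligase known from muscle, was at 17.98 to 20.02 CPM in aDR and 10.04 to 13.94 CPM in AL (0.62, SE 0.11). Rin2, a Rab5 exchange factor of endocytosis, differed by 0.52 (SE 0.11) and Usp2, a deubiquitinase with a daily rhythm, by 0.37 (SE 0.08). Mfsd2a, which carries docosahexaenoic acid across the blood-brain barrier, was at 17.46 to 25.18 CPM in aDR and 12.61 to 16.52 CPM in AL (0.59, SE 0.13). None of these 4 overlapped between diets, which the choice by p favours, and their edgeR adjusted p ranged from 0.658 to 0.988.

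The genes of smallest p among those lower in aDR included 2 of vesicle release. Sv2b, a glycoprotein of synaptic vesicles, was at 233.6, 265.8, 226.7, 274.5 and 312.1 CPM in aDR mice and at 416.8, 448, 337.5 and 347.5 CPM in AL mice. Its groups did not overlap, and the difference was -0.56 (SE 0.12; edgeR adjusted p = 0.888, DESeq2 adjusted p = 0.0327). Cadps2, which primes dense-core vesicles for release, was at 55.01, 57.17, 57.91, 55.58 and 52.6 CPM in aDR mice and at 65.04, 75.41, 94.7 and 92.01 CPM in AL mice. The aDR libraries lay within a narrow band below a scattered AL group, with a difference of -0.56 (SE 0.11; edgeR adjusted p = 0.868, DESeq2 adjusted p = 0.0295).

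Olig2, a transcription factor of the oligodendrocyte lineage, was at 17.87, 18.55, 18.17, 19.06 and 19.96 CPM in aDR mice and at 23.74, 24.67, 25.17 and 24.3 CPM in AL mice, with a difference of -0.38 (SE 0.08; edgeR adjusted p = 0.88). Both groups were tight and apart. Arhgap33 differed by -0.39 and Hif1an, the hydroxylase that inhibits HIF, by -0.40. Ccdc97 differed by -0.33, Dpp9, a serine dipeptidase of the cytosol, by -0.30 and Rexo4, a putative exonuclease, by -0.29. All of these 6 were below AL without overlap (0.707% of all genes), which the choice by p favours. Their edgeR adjusted p was 0.88 or above.

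Libraries of this dissection differed in their make-up, in both diets. The first principal component held 49.4% of the variance and ordered the libraries nearly as the dentate granule cell markers did, with mice 68, 64, 69 and 61 at the high end of both. The summed level of the 6 dentate markers, all detected, in plain CPM, was 606.8, 347.3, 811.2, 382.0 and 165.6 in aDR mice 61, 62, 64, 65 and 67, and 151.2, 108.2, 523.1 and 435.6 in AL mice 63, 66, 68 and 69. These values spanned 7.5-fold with the diets interleaved, though AL mice 66 and 63 were lowest. All 6 markers were higher in aDR by value (0.48 to 0.69, median 0.63), with 0 at an unadjusted p under 0.05. Prox1, which specifies granule cells, was at 151.1, 85.18, 217.7, 89.21 and 35.57 CPM in aDR mice and at 34.32, 26.46, 134.3 and 97.41 CPM in AL mice, and its difference of 0.67 (SE 0.56; edgeR adjusted p = 1) was close to its error and ran from 0.31 without aDR mouse 64 to 1.14 without AL mouse 68 when 1 mouse was left out.

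Other markers moved along the same libraries. Summed CA1 pyramidal markers (4 genes) ran from 259.2 to 871.2 CPM in aDR and from 448.3 to 871.4 in AL, and CA3 and CA2 markers (8 genes) from 380.3 to 546.6 and from 338.0 to 672.2. Thalamus and midbrain markers (5) ran from 93.1 to 145.1 in aDR and from 44.8 to 177.0 in AL, neocortex markers (5) from 254.3 to 413.6 and from 141.7 to 432.9, and meningeal markers (6) from 385.0 to 2578 and from 246.2 to 2360. Single genes led the thalamus and midbrain, neocortex and meningeal sums, so these do not measure the amount of each tissue. Slc17a6, of the thalamus and midbrain set, was at 0.853 to 119 plain CPM, while each other member was at most at 46.2. Tshz2, of the neocortex set, was at 6.11 to 243 plain CPM against 13.4 to 32.0 in motor cortex. Ptgds, of the meningeal set, was at 216 to 2484, while each other member was at most at 28.2. AL mouse 68 was the lowest library for the thalamus and midbrain, neocortex and meningeal sums. In that mouse Slc17a6, the vesicular glutamate transporter of thalamus and subiculum, was at 0.873 CPM against 43.5 to 88.97 CPM in aDR. Tshz2 was at 6.26 CPM there against 96.5 to 239 CPM in aDR. The AL group was widely spread for Slc17a6, at 60.9 ± 54.6 CPM (SD, n = 4) and up to 118.75 CPM. Both genes were picked after their values were seen. Of 10 choroid plexus markers, Ttr, Folr1, Clic6, Kcne2, Aqp1, Cldn2 and Otx2 were at or below 0.939 plain CPM in every library. The other 3 were detected, with Kl at 4.57 to 12.8 CPM and above every motor cortex library, Kcnj13 at 0.427 to 10.7 CPM and Enpp2, which oligodendrocytes also express, at 114 to 221 CPM. The summed level of all 10 ran from 128.7 to 183.1 CPM in aDR and from 129.1 to 236.7 CPM in AL. The part of the dissection's make-up in the diet differences was not tested. Adding the mean dentate marker level to the edgeR fit, an alternative added after the data were seen, gave 8 calls in place of 0, with Rbm3, Plin4, Fmo2, Etnppl, Cadps2 and Sv2b among them. The other 2 were Sult1a1 and Tsc22d3.

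**Figure D2:**
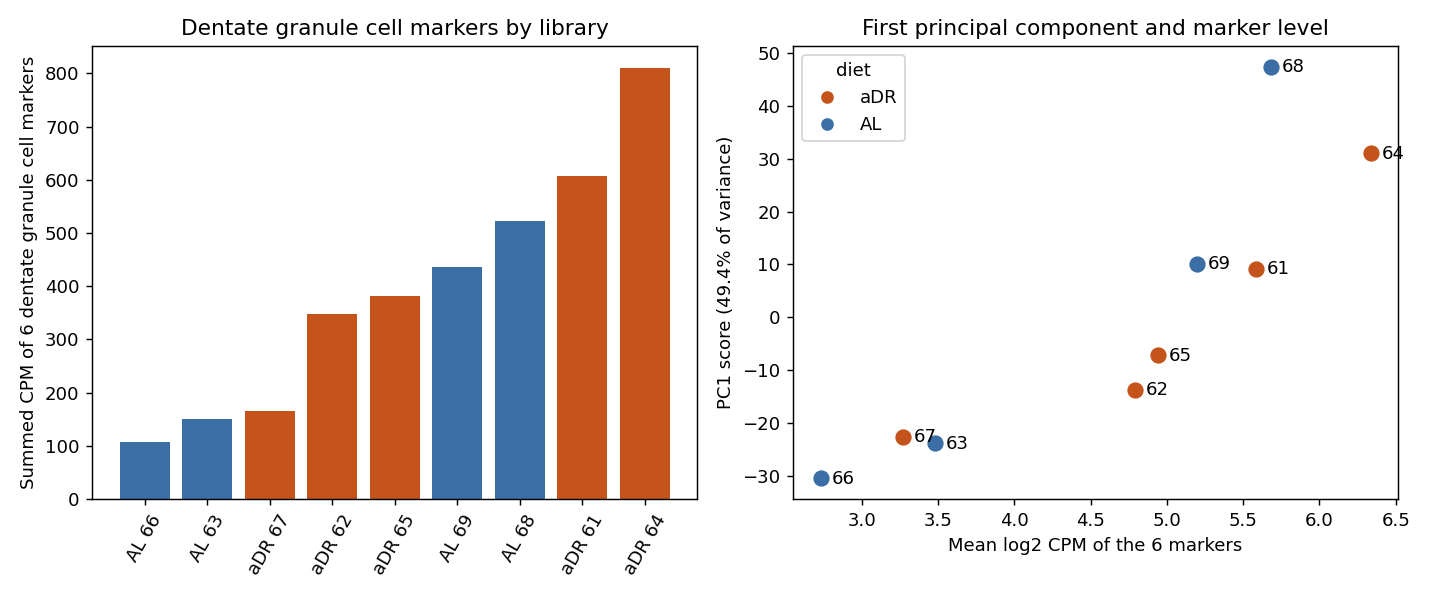
Left, summed plain CPM of 6 dentate granule cell markers in each posterior hippocampus library, sorted by level (AL blue, aDR orange). Right, score on the first principal component (49.4% of variance) against the mean log2 CPM of the same markers, labelled by mouse number, in which libraries of both diets lie along one trend and AL mouse 68 has the highest score.

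The tissue label was checked against motor cortex of the same mice. Of 26 hippocampal neuron markers, 10 were above every motor cortex library in every posterior hippocampus library, among them Prox1, C1ql2, Dsp, Fibcd1 and Zbtb20. They included 3 of 6 dentate, 1 of 4 CA1, 1 of 8 CA3 and CA2 and 4 of 5 subiculum and ventral markers. Bok (median 48.4 against 83.1 plain CPM) and Pcp4 (116.5 against 183.9) were lower in posterior hippocampus by median. Tcf7l2 of the thalamus set and Gfap of astrocytes also passed, and the share over all genes was not counted. C1ql2, a dentate synaptic protein, was at 16.0 to 250.3 CPM against at most 1.22 CPM in motor cortex. Zbtb20, a repressor that shapes hippocampal neurons, was at 151.4 to 633.7 against at most 117.7.

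Most glucocorticoid targets were higher in aDR by value. The list was written with earlier results of these data known, which name Plin4, Fmo2, Hif3a, Fkbp5 and Zbtb16. Its shares beside those of all genes are therefore not an independent measure. Of 27 members tested among 28, edgeR called 0, 11 were higher and 0 lower at an unadjusted p under 0.05 (all genes 3.95%), 7 did not overlap between diets (all genes 1.67%), and the median difference was 0.30 against 0.0093 for all genes. The receptor genes Nr3c1 (-0.01) and Nr3c2 (-0.12) and the steroid-activating enzyme Hsd11b1 (0.10) differed by less than their SE, and are named because they make up the list's receptor and enzyme role. Hif3a, an inhibitory HIF subunit, was at 2.84 to 5.94 CPM in aDR and 2.02 to 2.67 CPM in AL (0.79, SE 0.26; 0.52 without aDR mouse 67). Fkbp5, a chaperone that dampens the receptor, was at 99.3, 57.17, 117, 65.67 and 89.24 CPM in aDR mice and at 40.95, 42.88, 107.6 and 60.04 CPM in AL mice. Its groups overlapped, with AL mouse 68 above every aDR mouse but 64, and its difference was 0.47 (SE 0.30; unadjusted p = 0.148 by edgeR). Without AL mouse 68 it was 0.85, and without AL mouse 63 it was 0.31. Zbtb16, a zinc finger factor, differed by 0.20 (SE 0.09).

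A further 4 targets without overlap were picked for naming after their values were seen. Tsc22d3, which encodes the anti-inflammatory protein GILZ, was at 129.1 to 213.7 CPM in aDR and 96.7 to 126.8 CPM in AL (0.62, SE 0.14). Sgk1, a kinase that acts on ion channels, was at 97.3 to 186.3 and 78.4 to 95.9 (0.57, SE 0.17). Sult1a1, a sulfotransferase, was at 8.49 to 18.6 and 3.56 to 8.09 (1.18, SE 0.27), and Pla2g3, a secreted phospholipase, at 2.08 to 6.03 and 1.73 to 2.04 (0.90, SE 0.34). All 4 had an edgeR adjusted p of 1. Without AL mouse 68 the list had 14 members higher and 0 lower at an unadjusted p under 0.05, and 6.32% of all genes passed that limit.

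Clock genes also leaned to the higher side. This list too was written with earlier results of these data known, which name Ciart, Dbp, Per1 and Nr1d1. The 21 members gave 0 calls by edgeR, 6 higher and 1 lower at an unadjusted p under 0.05 (all genes 3.95%) and 3 without overlap (all genes 1.67%), with a median of 0.14. All 8 repressors were above 0. Cry1, a cryptochrome that inhibits CLOCK and BMAL1, was at 40.09, 45.81, 38.99, 37.32 and 46.48 CPM in aDR mice and at 36.13, 35.33, 21.68 and 27.54 CPM in AL mice (0.46, SE 0.15). The groups did not overlap, though by a small margin. Ciart, a repressor whose promoter with 3 E-boxes is shown above, was at 32.64, 33.32, 25.36, 32.35 and 38.94 CPM in aDR mice and at 25.64, 27.39, 15.13 and 26.46 CPM in AL mice (0.45, SE 0.18; edgeR adjusted p = 1). Its groups overlapped, since aDR mouse 64 lay below 3 AL mice, and without AL mouse 68 the difference was 0.30.

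Per1, a repressor also induced by glucocorticoids, differed by 0.30 (SE 0.15) and Dbp, an output factor that binds D-boxes, by 0.32 (SE 0.14), both with overlap. Per1 was at 0.17 and Dbp at 0.21 without AL mouse 68. Nr1d1, which encodes REV-ERBα, differed by 0.02 (SE 0.11). Without AL mouse 68, 13 of the 21 clock genes in place of 18 were above 0 and 5 in place of 6 were higher at an unadjusted p under 0.05. The hour of sampling is not in the labels, so its part in these values was not tested.

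**Figure D3:**
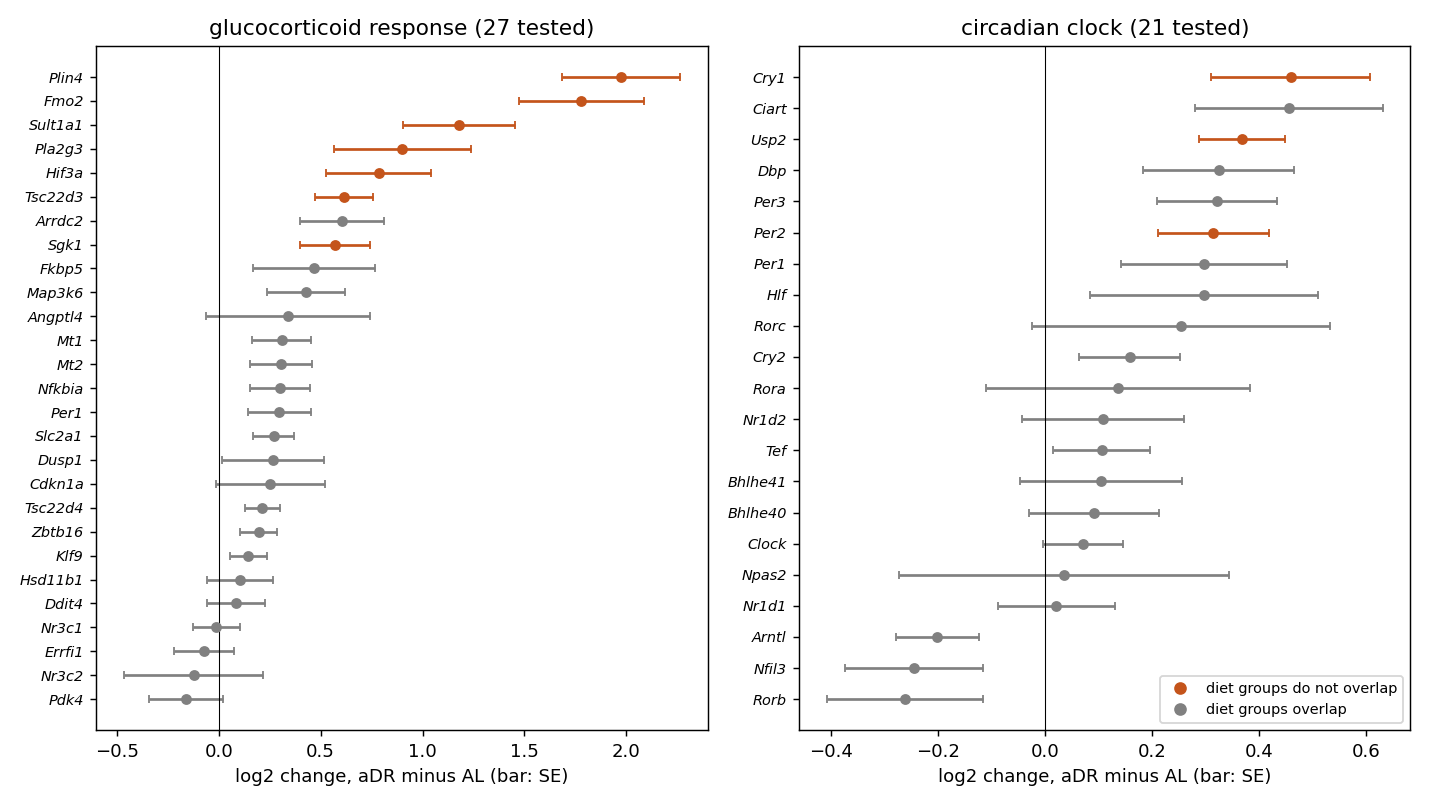
Log2 difference of aDR over AL with its SE for the tested members of the glucocorticoid list (left, 27 genes) and the clock list (right, 21 genes), in order of size. Orange marks genes whose diet groups do not overlap, 7 on the left and 3 on the right.

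Lipid and energy genes were mixed in direction, and cholesterol synthesis genes lay mostly on the lower side. Of 20 members tested in the lipid droplet, PPAR and fasting list, 3 were higher and 1 lower at an unadjusted p under 0.05 (all genes 3.95%), 12 were above and 8 below 0, and the median was 0.06. Ucp2, a mitochondrial carrier, was at 17.72 to 25.55 CPM in aDR and 12.39 to 15.71 CPM in AL (0.51, SE 0.13). Of the cholesterol synthesis genes 13 of 16 were below 0 (median -0.07), against 6298 of 13434 over all genes. At an unadjusted p under 0.05, 1 was higher and 3 were lower (all genes 2.12% higher and 1.82% lower). Without AL mouse 68, 13 were also below 0 (median -0.11), and with the dentate marker level in the fit 10 were (median -0.02). Msmo1, a sterol methyl oxidase, was at 161.2, 188.5, 159, 172.7 and 181.8 CPM in aDR mice and at 205.4, 208.6, 213.3 and 197.2 CPM in AL mice (-0.26, SE 0.07). Its groups did not overlap, while those of Dhcr7, the last enzyme of the pathway, did (-0.18, SE 0.08).

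In the insulin, IGF, FoxO and mTOR list 2 of 21 tested members were higher and 0 lower at an unadjusted p under 0.05 (all genes 3.95%). The median was -0.04. Sesn1, a sestrin that restrains mTORC1, was at 126.7 to 159.9 CPM in aDR and 104 to 123.1 CPM in AL without overlap (0.36, SE 0.09). Foxo1, a factor active when insulin signalling is low, was at 117.2, 67.77, 111.3, 78.8 and 66.53 CPM in aDR mice and at 58.33, 55.64, 73.32 and 72.35 CPM in AL mice (0.45, SE 0.19). The 2 aDR mice with the highest Foxo1, 61 and 64, also had the highest dentate marker sums, and with the dentate level in the fit the difference was 0.29. Autophagy and sirtuin genes had 0 of 15 at an unadjusted p under 0.05, with Sirt1 at 0.27 (SE 0.13) and Sirt7 at 0.15 (SE 0.09).

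Neuronal activity genes lay on the lower side. Of 14 immediate early genes 13 were below 0, 2 were lower and 0 higher at an unadjusted p under 0.05 (all genes 1.82% lower), none was without overlap and the median was -0.29. Egr4, a zinc finger factor, was at 30.3 to 41.45 CPM in aDR and 41.02 to 57.82 CPM in AL (-0.28, SE 0.13; -0.17 without AL mouse 66), and Egr2 differed by -0.51 (SE 0.23). The dentate covariate left 9 of 14 below 0. Bdnf, the neurotrophin whose transcription follows activity, differed by 0.08 (SE 0.24) with wide overlap, and its sign turned under the dentate covariate (-0.11) and without 3 single mice. Ntf3, another neurotrophin and enriched in the dentate gyrus, was at 7.63 to 20.63 CPM in aDR and 3.11 to 14.4 CPM in AL.

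Oligodendrocyte genes lay mostly on the lower side. Of 17 members 14 were below 0, all 7 precursor genes among them, and 2 were lower at an unadjusted p under 0.05 (all genes 1.82% lower), Olig2 and Olig1 (-0.31, SE 0.09), with a median of -0.14. Without AL mouse 68 all 17 were below 0 (median -0.27), and under the dentate covariate 10 of the 17 were above 0 (median 0.06). The summed myelin markers (10 genes) ran from 3527 to 6815 CPM in aDR and from 3401 to 8089 in AL. Of 12 astrocyte genes Etnppl was higher, Fabp7, a fatty acid carrier of immature glia, was lower by value (-0.52, SE 0.18; 13.04 to 18.17 CPM in aDR and 17.03 to 30.24 in AL), and the median was 0.01. Without AL mouse 69, Fabp7 was at -0.35. Of 18 endothelial and mural genes 4 had an unadjusted p under 0.05 (22.2%, against 3.95% of all genes). Those higher were Mfsd2a, Slc2a1, the glucose transporter of the barrier (0.27, SE 0.10), and Slco1a4, an anion transporter (0.29, SE 0.11), and the one lower was Cldn5, a tight junction protein (-0.37, SE 0.15). Slco1a4 and Cldn5 were picked after their values were seen. Kdr, the VEGF receptor, was at -0.25 (SE 0.17; unadjusted p = 0.17 by edgeR), and at -0.16 without either AL mouse 66 or aDR mouse 67.

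Microglia and complement genes gave 0 of 16 at an unadjusted p under 0.05 (all genes 3.95%), with 5 above and 11 below 0 (median -0.09). The sign turned without AL mouse 68, with 11 above and 6 below 0 (median 0.06). Single values were C4b at 0.14 (SE 0.21), Aif1 at -0.24 and Tmem119 at -0.18. Interferon genes gave 1 of 9 (all genes 3.95%), Ifit3 (0.73, SE 0.26), while Irf7 was at -0.62 (SE 0.37; -0.29 without AL mouse 68). Heat shock and unfolded protein genes gave 2 of 20, both lower (all genes 1.82% lower). Hsph1, a chaperone of the HSP110 family, differed by -0.35 (SE 0.12; -0.21 without AL mouse 68), and Calr, the calcium-binding chaperone of the endoplasmic reticulum, by -0.22 (SE 0.06) without overlap. Cytosolic ribosome genes lay above 0 in 33 of 38, but by little (median 0.04), and 0 had an unadjusted p under 0.05. The respiratory chain list (30) also had 0, with Ndufv1 at 0.11 and mt-Co3 at -0.21.

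Neurogenesis and proliferation genes gave 0 of 12 tested at an unadjusted p under 0.05 (Nes -0.53, SE 0.26; Hmgb3 0.43, SE 0.25), and 6 of 18 were under the filter. Neurotrophin genes gave 0 of 6 (Ngfr -0.22), glutamate and GABA receptor genes 0 of 16 (Gabrd 0.25, Gria3 -0.14) and antioxidant and metallothionein genes 0 of 14 (Mt1 0.31, Mt2 0.30, a pair similar enough in sequence that reads may be shared). GABAergic interneuron genes gave 1 of 12 (all genes 3.95%), Gad2 at -0.16 (SE 0.06), with Slc32a1 at -0.19. Of hippocampal neuron markers, 1 of 26 was lower and 0 higher at that limit (3.85%, near the 3.95% of all genes). It was Fibcd1 of CA1 (-1.47, SE 0.52), at 17.79 to 30.77 CPM in aDR and 16.03 to 129.8 CPM in AL. The high AL values came from mice 68 and 69, and Neurod6 (-0.46, SE 0.22) was also highest in AL mouse 68. Without that mouse Fibcd1 was at -0.75 and Neurod6 at -0.13. Among neighbouring tissue markers Rasgrf2 was higher by 0.33 (SE 0.09) and Rorb at -0.26, and of the blood genes Alas2 was at 0.56 (SE 0.23) and Hba-a1, one of a pair of near-identical copies, at 1.07 (SE 0.69). Hba-a1 was at 2.31 without AL mouse 66 and at 0.67 without aDR mouse 67.

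**Figure D4:**
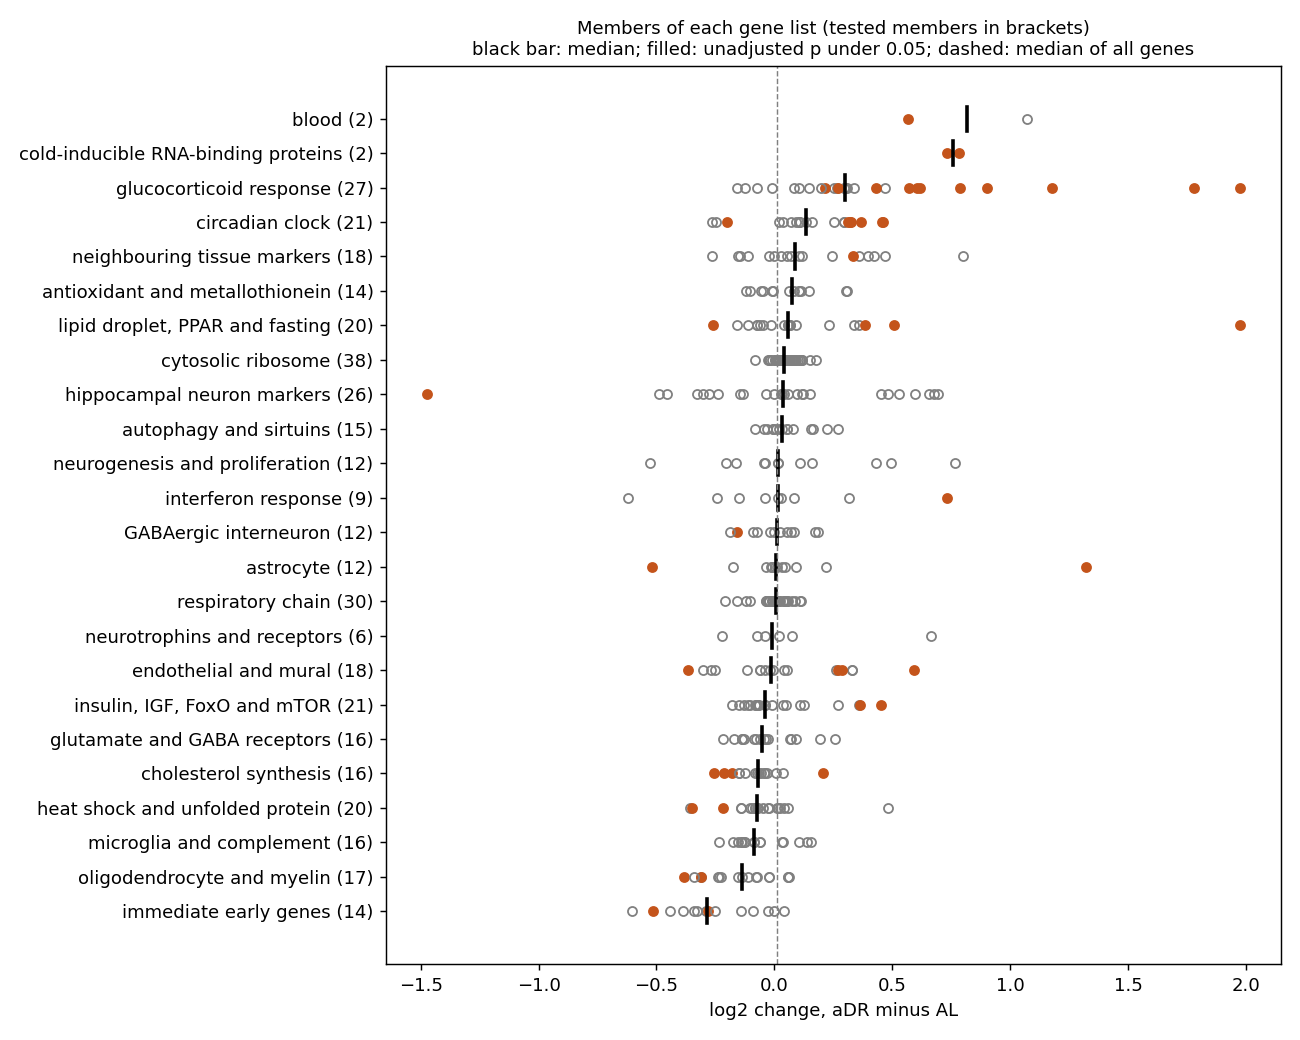
Log2 difference of aDR over AL of each tested member of 24 gene lists in posterior hippocampus, with the median of each list as a black bar and the median of all genes (0.0093) as a dashed line. Filled points have an unadjusted p under 0.05, of which the glucocorticoid list holds 11, all above 0, and the immediate early gene list 2, both below 0.

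The diet difference in posterior hippocampus was tested against that in anterior hippocampus and against the mean of other regions. Against anterior hippocampus of the same mice, the region by diet term of edgeR called 0 of 13691 genes (358 at an unadjusted p under 0.05, 2.61%; DESeq2 0, with 375). With mouse as a replicate block it called 0, with 376. Without aDR mouse 67 the 358 became 681, without aDR mouse 64 they became 197 and without AL mouse 68 they became 229, each with 0 calls. Rbm3 differed by 0.43 (SE 0.11) in anterior hippocampus, where its level was 126.5 ± 16.2 CPM (SD, n = 5) in aDR and 93.8 ± 9.3 CPM (SD, n = 4) in AL, and the difference between the regions was 0.34 (SE 0.15; edgeR adjusted p = 1). For Cirbp the anterior difference was 0.68 (SE 0.10), for Plin4 2.13 (SE 0.51), for Fmo2 1.53 (SE 0.37) and for Etnppl 1.33 (SE 0.49). For these 4 the difference between regions was smaller than its own SE (Cirbp 0.03, SE 0.17; Plin4 -0.18, SE 0.64; Fmo2 0.23, SE 0.51; Etnppl -0.03, SE 0.65). Sv2b had the opposite sign there (0.31, SE 0.39), and the difference between regions was -0.89 (SE 0.45; edgeR adjusted p = 1). Without aDR mouse 64 that difference was -0.39. For Ciart the anterior difference was 0.88 (SE 0.11).

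The 5 genes with the smallest p in that term were Mki67 (1.58), a proliferation marker, Zfp72 (0.57), Syt3 (-0.36), a synaptotagmin, Btbd7 (0.51) and Rph3al (1.27), a Rab effector, all with an adjusted p of 1. Mki67 had at most 16 counts in a posterior library, at 0.76 to 2.49 CPM in aDR and 0.93 to 1.31 in AL.

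Against the mean of 10 other brain regions of the same mouse (caudate putamen, cerebellum, anterior hippocampus, medulla, motor cortex, olfactory bulb, pons, SVZ, thalamus and visual cortex), limma called 0 of 13434 genes, with 222 at an unadjusted p under 0.05 (1.65%) and 361 without aDR mouse 67. Sv2b led (-0.56, SE 0.13; unadjusted p = 0.00127), followed by Nkain2 (0.53), which binds the sodium pump, Lrrc3b (0.40), Akap7 (0.35), an anchor of protein kinase A, and Plk2 (-0.32), an activity-induced kinase. For Rbm3 the difference from the other regions was 0.11 (SE 0.10), for Cirbp 0.09 (SE 0.10), for Fmo2 0.14 (SE 0.22) and for Plin4 -0.22 (SE 0.28), all with a limma adjusted p of 1.

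Placed among the 15 brain dissections fitted one at a time, choroid plexus included, the posterior difference of Rbm3 ranked 5th (range 0.40 in olfactory bulb to 0.92 in pons), Cirbp 4th, Fmo2 3rd and Plin4 11th (1.02 in cerebellum to 2.93 in caudate putamen). Ciart ranked 14th (0.31 to 1.23) and Hif3a 14th. Sv2b and Cadps2 also ranked 14th from the highest. Sv2b was lower in caudate putamen (-0.58), and Cadps2 in thalamus (-0.60). Rin2, Sesn1 and Foxo1 were highest in posterior hippocampus, and Msmo1, Dhcr7, Ccdc97 and Dpp9 lowest, but no test of a difference called any of these 7. All 7 were chosen by their p in posterior hippocampus, which favours an extreme rank there. Of the hippocampal neuron markers described, Prox1 (0.67) was also highest and Fibcd1 (-1.47) lowest there, without a call. In the single-region fits edgeR called Rbm3 in 6 regions, Plin4 in 5 and Ciart in 7, posterior hippocampus not among them.

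**Figure D5:**
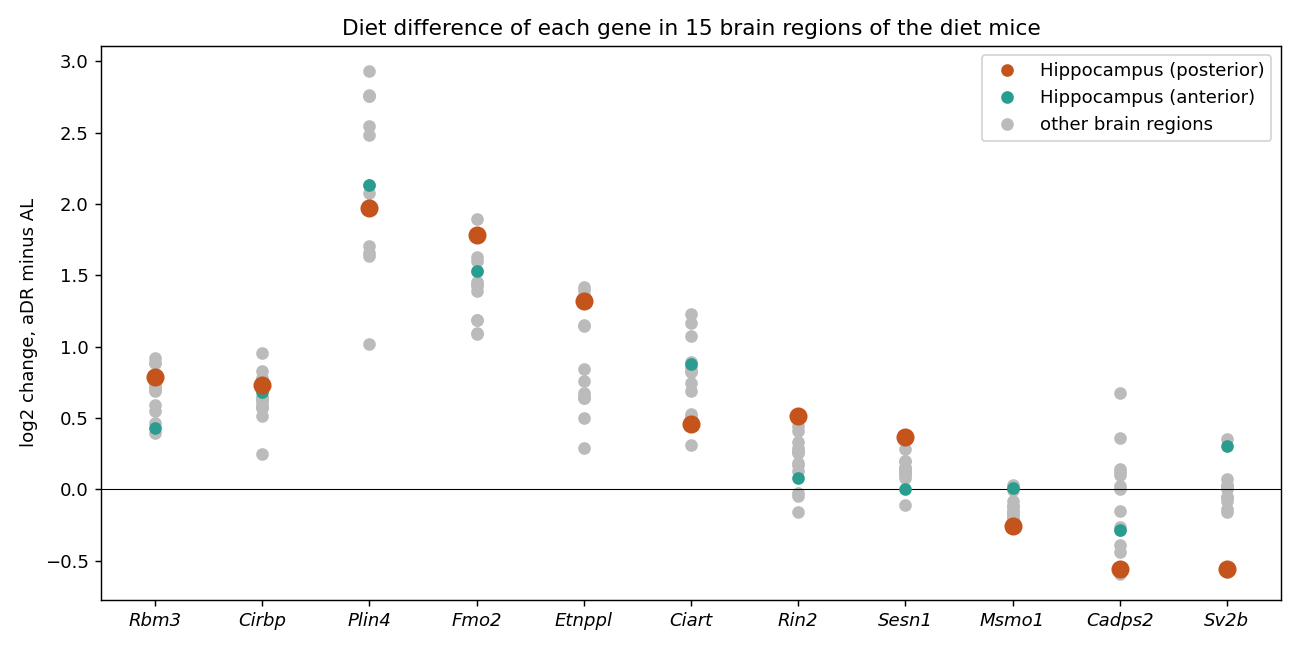
Log2 difference of aDR over AL for 11 genes in 15 brain dissections of the diet mice, choroid plexus included, with posterior hippocampus in orange, anterior hippocampus in green and the other regions in grey. Rbm3, Cirbp, Plin4, Fmo2, Etnppl and Ciart are above 0 in every region drawn. Sv2b is at -0.56 in posterior and 0.31 in anterior hippocampus, and is lowest in caudate putamen (-0.58).

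Against the plasma experiment in the same dissection, edgeR called 0 of 14083 genes for the diet difference minus the plasma difference (305 at an unadjusted p under 0.05, 2.17%; DESeq2 0, with 273). Leaving out PBS mouse 76, YMP mouse 81 or PBS mouse 84 gave 476, 550 and 197 at that limit. Rbm3 was at 63.6 ± 7.3 CPM in YMP and 68.3 ± 19.0 CPM in PBS mice (SD, n = 3 each), and Cirbp at 91.5 ± 9.6 and 98.2 ± 15.8. Cirbp had a diet minus plasma difference of 0.84 (SE 0.20), Rbm3 of 0.90 (SE 0.22) and Plin4 of 1.63 (SE 0.44), each with an edgeR adjusted p of 1. The other genes of smallest p were Gsdmd (-1.21), a pore-forming protein of cell death, Dpp9 (-0.43), Lrg1 (-2.09) and Zfp46 (0.71). Sv2b (-0.34, SE 0.31) and Cadps2 (0.17, SE 0.24) had unadjusted p of 0.286 and 0.486 in this contrast by edgeR.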

How the data were processed

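The authors' deposited values were read counts per gene, whole numbers in a single table of 238 libraries; per the labels, unstranded libraries were made by Smart-Seq2 and Nextera XT from total RNA. The submitters' processing notes name Trim Galore 0.3.7, STAR 2.5.3a, DESeq2 and GRCm38, without roles. Of the 21076 rows, 537 held no count, and 0 columns were left unused. The counting program is not given in the sources used here.

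Counts were fitted with edgeR 4.0.16 (R 4.3.3; filterByExpr with a minimum count of 10 and total of 15, TMM, quasi-likelihood test, no covariate) on the 9 libraries alone, since mouse numbers are not shared between diets. P-values were adjusted by Benjamini-Hochberg over all genes, and a call is an adjusted p under 0.05. Differences between regions used edgeR or, on log2 CPM with a prior count of 2, limma 3.58.1. Anterior and posterior libraries share animals, but the main region by diet fit had no mouse term. Its SE and p therefore take both libraries of a mouse as independent, and the replicate block was an alternative. Deviations correlated by 0.12 on average within a mouse and by -0.04 between mice of a diet. Alternatives were DESeq2 1.42.0, limma-voom, sva 3.50.0, other filters and scaling, and leaving out each mouse. The fits were tested on simulated data. P-values measure the spread between these mice or, in the main fit of posterior against anterior hippocampus, between libraries.

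Genes described were those called, the 8 of smallest p in each direction with a mean of at least 1 CPM, 2 of each list, 16 preset genes and the 5 of smallest p in each difference test. Members and lists were chosen with earlier results of these data known. Promoters were matched by symbol in RefSeq windows, using the one farthest upstream; the mild-cold octamer was added after the data were seen. Gene positions are from GENCODE M21. Choroid plexus was left out of the other regions.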

Additional observations from a re-analysis of the deposited data

Results flagged for a closer look

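Within each diet group, the highest and the lowest library were set against Dixon's critical value in 174 groups of values (87 measures in both diets: the genes described, summed marker sets, depth and mitochondrial share). Chance flags about 1 in 20 groups, and 10 (5.75%) stood apart. In AL mouse 68, Ciart was at 15.13 CPM against 25.64 to 27.39 CPM in the other AL mice, Hsph1 at 438.3 against 301.8 to 321, and Neurod6 at 233.2 against 110.9 to 116.6. In aDR mouse 61, Dhcr7 was at 52.99 CPM against 43.46 to 45.05, Fibcd1 at 30.77 against 17.79 to 18.81, Slc2a1 at 137.2 against 106.9 to 113.4, and Egr4 low at 30.3 against 40.13 to 41.45. Slc32a1, the vesicular GABA transporter, was at 5.679 CPM in aDR mouse 62 against 7.615 to 8.008, in the library with the fewest counts. In AL mouse 66, summed erythroid markers were at 12.59 CPM against 3.554 to 4.028 and summed mural markers at 182.9 against 114.6 to 119.4.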

How the results depend on the processing

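Alternatives moved the number of genes called for diet in posterior hippocampus. It was 0 with edgeR, with RLE factors, without a filter, with a minimum count of 50 and with all 15 posterior libraries in the fit, 6 with DESeq2, 1 with limma-voom weights, 11 with 1 surrogate variable and 8 with the dentate marker level as covariate; the cause was not tested. Leaving out 1 mouse gave 0 to 1 calls, the 1 being Rbm3 without aDR mouse 67. Genes at an unadjusted p under 0.05 numbered 1741 with limma-voom weights, 1162 with the surrogate variable, 1227 with the dentate covariate and 861 without AL mouse 68, against 530. In the other 3 comparisons every alternative run gave 0 calls, with mouse as a replicate block (0) and with no replicate block (0) included.

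Of the gene values for diet, 1102 kept their direction and side of the threshold, 21 passed it and 8 reversed: Aif1 0.0751 and Nr1d1 -0.0718 with limma-voom weights, Ngfr 0.0433 and Bdnf -0.11 with the dentate covariate, and the rest without 1 mouse.
Over fits without 1 mouse, Bdnf ran from -0.0475 to 0.37 and Nr1d1 from -0.0837 to 0.0903 (lowest without AL mice 66 and 68). The posterior minus anterior difference ran from -0.42 to 0.11 for Plin4 and from -0.0395 to 0.13 for Cirbp, that from other regions from -0.0385 to 0.26 for Fmo2, and that from plasma from -0.0535 to 0.35 for Cadps2 and from -0.59 to 0.0602 for Sv2b. Genes at an unadjusted p under 0.05 ran from 375 to 861 for diet, from 197 (without aDR mouse 64) to 681 (without aDR mouse 67) against anterior hippocampus, from 186 to 361 (without aDR mouse 67) against other regions and from 197 (without PBS mouse 84) to 550 (without YMP mouse 81) against plasma. The blood list's median was 1.48 without AL mouse 66, and under a minimum count of 50 it had no tested member. Depth limits Plin4 and Fmo2, which had as few as 11 counts in a library.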
